A study of Rattus norvegicus with 23 samples.

Results

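The miR-181 family was examined in small RNA libraries of rat PC12 cells, a line derived from an adrenal pheochromocytoma that keeps neuroendocrine traits. The members are the 5 entries rno-miR-181a-5p, rno-miR-181b-5p, rno-miR-181c-5p, rno-miR-181c-3p and rno-miR-181d-5p (written below without the species prefix), out of 413 entries of the sRNAbench count table. All 5 were among the 269 entries that passed a filter on low counts. The entries were taken by family name, and the family was chosen by its read counts in these libraries: miR-181a-5p and miR-181b-5p are scarce, and those from the miR-181c and miR-181d hairpins are abundant. Its levels and the difference between the lines were known when it was chosen, so both are described without a test, while changes with time were tested.

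The α1ACT line had been stably transfected with a pcDNA3 vector for α1ACT, a transcription factor encoded within the calcium channel gene CACNA1A, with 11 glutamine repeats and a C-terminal Flag tag. The vector line carried empty pcDNA3, and both lines were G418-selected PC12 cells. The cells were sampled at 4 times after a split (6 h, 24 h, 3 d, 10 d), with 3 libraries in each of the 8 groups except the vector line at 6 h, which has 2, so 23 in all. The amount of α1ACT protein was not measured in these files. The labels do not say how many clones stand behind a line or whether replicates were separate cultures. A difference between the lines therefore includes any difference between clones, and p-values measure the spread between these libraries, which may be technical.

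MicroRNAs guide silencing complexes to messenger RNAs, mostly through base pairing of the seed near their 5′ end. Both strands of a hairpin can yield a mature miRNA, named 5p or 3p by arm, and one arm usually accumulates far more than the other. The miR-181 family is conserved in vertebrates, is well known for tuning antigen receptor signalling in developing lymphocytes through miR-181a, and is also abundant in brain.

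The mature sequences are shown because the scarce and the abundant members are near copies of each other. All 5 matched an entry of RefSeq on assembly GRCr8. Capitals mark the seed, bases 2 to 8 from the 5′ end.
miR-181a-5p: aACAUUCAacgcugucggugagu
miR-181c-5p: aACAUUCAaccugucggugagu
miR-181b-5p: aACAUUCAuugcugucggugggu
miR-181d-5p: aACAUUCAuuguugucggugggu
miR-181c-3p: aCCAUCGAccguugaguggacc
miR-181a-1-3p: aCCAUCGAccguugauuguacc

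The 4 members from the 5p arm share one seed, and of 693 mature miRNA names in the RefSeq table only these 4 carry it. The scarce miR-181a-5p and the abundant miR-181c-5p differ by 1 base, which the shorter miR-181c-5p lacks. The scarce miR-181b-5p and the abundant miR-181d-5p differ by 1 substitution, C12U, counted from the 5′ end with the miR-181b-5p base first. The scarce pair differs at 3 positions (A9U, C10U and A21G, miR-181a-5p base first). The 3p arm of miR-181c has another seed, which it shares with miR-181a-1-3p, the partner strand of 1 of the miR-181a hairpins, and those 2 differ by the substitutions G16U and G19U. Counts of a scarce member beside a near-identical abundant one are uncertain to the extent that the counting could split reads between them.

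The scarce and the abundant members come from different places in the genome. In GRCr8, used for names and neighbours alone, the hairpins Mir181a-1 and Mir181b1 are neighbours, as are Mir181a2 and Mir181b2, which lie within the bounds of the gene Nr6a1, a nuclear receptor gene. Mir181c and Mir181d are neighbours near Nanos3 and Brme1. The hairpin of miR-181c is printed because both of its arms are members, with the arms in capitals.
Mir181c: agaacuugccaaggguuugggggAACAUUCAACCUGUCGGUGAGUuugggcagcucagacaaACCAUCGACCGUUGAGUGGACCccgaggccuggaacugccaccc

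Libraries held between 448557 counts (replicate 1 of the vector line at 3 d) and 5070120 counts (replicate 1 of the α1ACT line at 10 d). For 2 vector columns, 6 h replicate 2 and 10 d replicate 2, the names were exchanged between the deposited count tables: each matched the other name when 154 miRNAs were compared, while the other 21 libraries matched their own. The sRNAbench names were kept, also in the figures. The time results of the members and of the brain-enriched list are given with the exchange as well. Of the markers of neuroendocrine cells, miR-375 stood at 112248 to 180267 CPM (counts scaled to one common library size, with TMM factors) in the α1ACT line and 130881 to 190559 CPM in the vector line, while miR-7a stood at 15.3 to 26.0 CPM in the α1ACT line and 8.31 to 32.4 CPM in the vector line, and miR-7b at no more than 1.84 CPM in the α1ACT line and 1.38 CPM in the vector line. The neuronal miR-124 had 2 counts in all. Of 7 blood-cell markers 6 were listed, and their sum was at most 12.3 CPM in the α1ACT line and 9.28 CPM in the vector line. In the α1ACT line miR-223 was at 0. The endothelial marker miR-126a stood at 75.04 to 122.4 CPM in the α1ACT line and 88.31 to 143.1 CPM in the vector line. Its part in the differences below was not tested. Of the 3 smooth muscle and fibroblast markers, miR-143 stood at 290.5 to 769 CPM in the α1ACT line and 389.8 to 1309 CPM in the vector line, and its part in the differences below was not tested. The others were low, with miR-145 at 0 to 3.07 CPM in the α1ACT line and 0 to 2.16 CPM in the vector line, and miR-199a at 8.29 to 17.02 CPM in the α1ACT line and 5.61 to 17.9 CPM in the vector line.

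The 4 mature strands with the common seed spanned more than 3 orders of magnitude in level, and their order was the same in both lines. The abundant rno-miR-181c-5p led with 8425 ± 1111 CPM in the α1ACT line (SD, n = 12) and 7967 ± 1653 CPM in the vector line (SD, n = 11), rank 19 of the 269 miRNAs over all libraries. Next came rno-miR-181d-5p with 2621 ± 265 CPM in the α1ACT line and 2554 ± 308 CPM in the vector line (rank 44), and rno-miR-181c-3p with 475 ± 35.4 CPM in the α1ACT line and 481 ± 60.7 CPM in the vector line (rank 82). The scarce rno-miR-181a-5p had 32.5 ± 11.1 CPM in the α1ACT line and 8.48 ± 2.81 CPM in the vector line (rank 185), and rno-miR-181b-5p had 3.78 ± 1.69 CPM in the α1ACT line and 1.14 ± 0.846 CPM in the vector line (rank 262). The observed values of neighbours in this order did not overlap within a line. For miR-181a-5p and miR-181b-5p in the vector line the depth does not settle this, since a count of 0 for miR-181b-5p in the shallowest library allows up to 6.72 CPM, above the lowest miR-181a-5p value of 3.29 CPM. All 5 strands are 22 or 23 bases long, and no correction for length was made. Together the members took 0.984% to 1.47% of the counts of an α1ACT library and 0.917% to 1.33% of a vector library.

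The scarce miR-181a-5p, the member best known from lymphocytes, was the one whose levels separated the lines. In the α1ACT line it had 36.7, 16.0 and 37.2 CPM at 6 h, 38.4, 18.3 and 26.4 CPM at 24 h, 38.2, 17.3 and 35.9 CPM at 3 d and 48.7, 29.6 and 47.2 CPM at 10 d. In the vector line it had 7.77 and 9.01 CPM at 6 h, 6.18, 9.14 and 3.29 CPM at 24 h, 6.72, 8.78 and 9.64 CPM at 3 d and 14.8, 9.63 and 8.27 CPM at 10 d. Every α1ACT library was above every vector library. This complete separation with the α1ACT line higher held for 0.372% of the 269 miRNAs, namely miR-181a-5p alone, and separation at each of the 4 times held for 0.743%. Averaged over the times, the fitted log2 fold change of the α1ACT line over the vector line was 1.91 (SE 0.195). By time, 6 h gave 1.83 (SE 0.433), 24 h gave 2.11 (SE 0.384), 3 d gave 1.78 (SE 0.385) and 10 d gave 1.93 (SE 0.351).

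Within the α1ACT line the libraries numbered 2 were the lowest in miR-181a-5p at each of the 4 times, though still above the vector line. They were also the lowest in miR-181b-5p at each time, and in miR-181c-5p and miR-181d-5p at 6 h, 24 h and 3 d. Omitting these 4 libraries, picked as the lowest in miR-181a-5p, was bound to raise its log2 fold change, which was then 2.16 (SE 0.153). The counts behind the values were small. They ran from 34 to 254 per α1ACT library and from 3 to 59 per vector library, and the vector library with 3 counts was the shallowest of the series.

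The rarer miR-181b-5p, encoded beside miR-181a, was also higher on average in the α1ACT line but was near the limit of detection. It had 10, 8 and 12 counts in the α1ACT line at 6 h, 15, 0 and 6 at 24 h, 10, 5 and 8 at 3 d and 20, 10 and 12 at 10 d. The vector line had 2 and 5 counts at 6 h, 2, 2 and 4 at 24 h, 0, 4 and 0 at 3 d and 7, 2 and 5 at 10 d. Scaled to library size, the α1ACT libraries were above the vector libraries at 6 h, 3 d and 10 d, and the lines overlapped at 24 h. A count of 0 allows up to 1.28 CPM in the α1ACT library at 24 h, and up to 6.72 and 0.804 CPM in the vector libraries at 3 d (3 counts over the scaled total, counting error only). The depth therefore does not settle the separation at 3 d, since 6.72 CPM is above the highest α1ACT value there, 4.45 CPM. The fitted log2 fold change over the 4 times was 1.71 (SE 0.427), and it was 2.62 without vector 3 d replicate 2, the only library of that group with a count.

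The abundant members showed no such separation. The log2 fold change of the α1ACT line over the vector line was 0.11 for miR-181c-5p (SE 0.0524), 0.05 for miR-181d-5p (SE 0.0494) and -0.01 for miR-181c-3p (SE 0.0583; 0.06 with library totals), and the lines overlapped at every time for each. The median over the 5 members was 0.11, beside 0.00 over all 269 miRNAs, whose median absolute value was 0.13. Ordered from the highest positive log2 fold change down (mean of the 4 times), miR-181a-5p ranked 1 and miR-181b-5p ranked 2 of 269. At 6 h, 24 h, 3 d and 10 d miR-181a-5p ranked 3, 1, 2 and 1, and miR-181b-5p ranked 4, 4, 1 and 2. These ranks take no account of the error. The values of miR-181b-5p at these times were 1.60 (SE 0.872), 1.07 (SE 0.852), 2.55 (SE 0.965) and 1.61 (SE 0.698). Leaving out 1 library, they ran from 0.12 to 1.72 at 24 h and from 1.59 to 6.21 at 3 d.

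**Figure D1:**
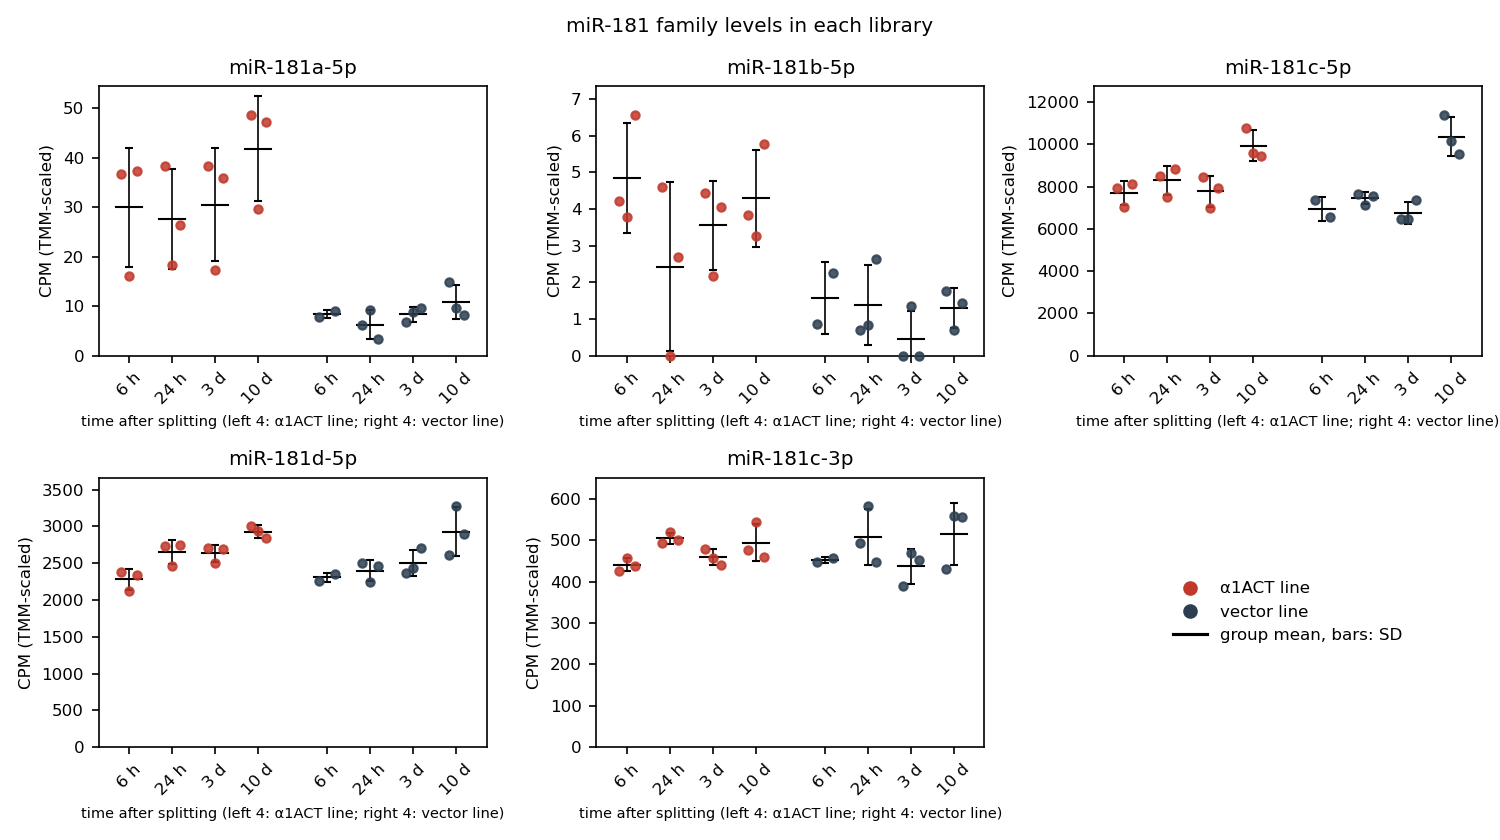
TMM-scaled CPM of each member (vertical axes, linear from 0) by time after splitting, with 1 point per library, α1ACT line in red on the left and vector line in dark blue on the right, and bars for the group mean and SD. For miR-181a-5p all 12 α1ACT points (16.0 CPM or more) lie above all 11 vector points (14.8 CPM or less), while for miR-181c-5p the 10 d points stand highest in both lines.

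**Figure D2:**
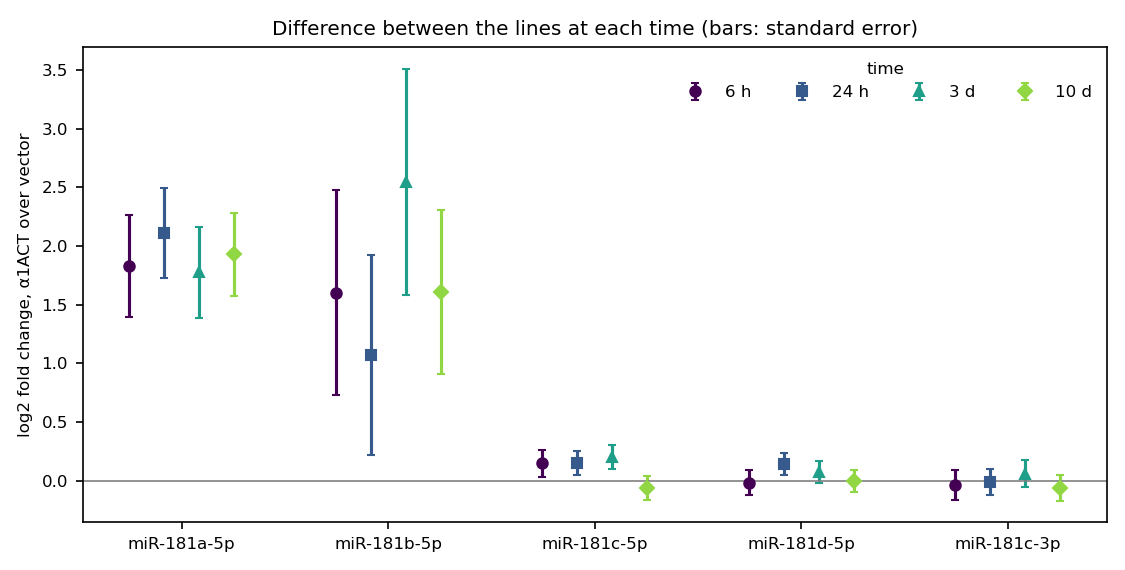
Fitted log2 fold change of the α1ACT line over the vector line (vertical axis) for each member at 6 h, 24 h, 3 d and 10 d, with bars for the standard error. Values for miR-181a-5p lie between 1.78 and 2.11, while those of the 3 abundant members stay close to 0.

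Setting each scarce strand against its abundant near copy within the same library removes the scaling to library size from the comparison. It does not remove the counting error, since the ratios rest on the same small counts of the scarce members. For every 100 counts of miR-181c-5p the α1ACT line had 0.380 ± 0.104 counts of miR-181a-5p (SD, n = 12) and the vector line 0.107 ± 0.0293 (SD, n = 11). The α1ACT libraries ran from 0.228 to 0.5001 and the vector libraries from 0.0435 to 0.137, with no overlap. For every 100 counts of miR-181d-5p there were 0.145 ± 0.0695 counts of miR-181b-5p in the α1ACT line and 0.0453 ± 0.0348 in the vector line, with overlap. The part of reads assigned to the wrong member in these ratios was not tested.

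**Figure D3:**
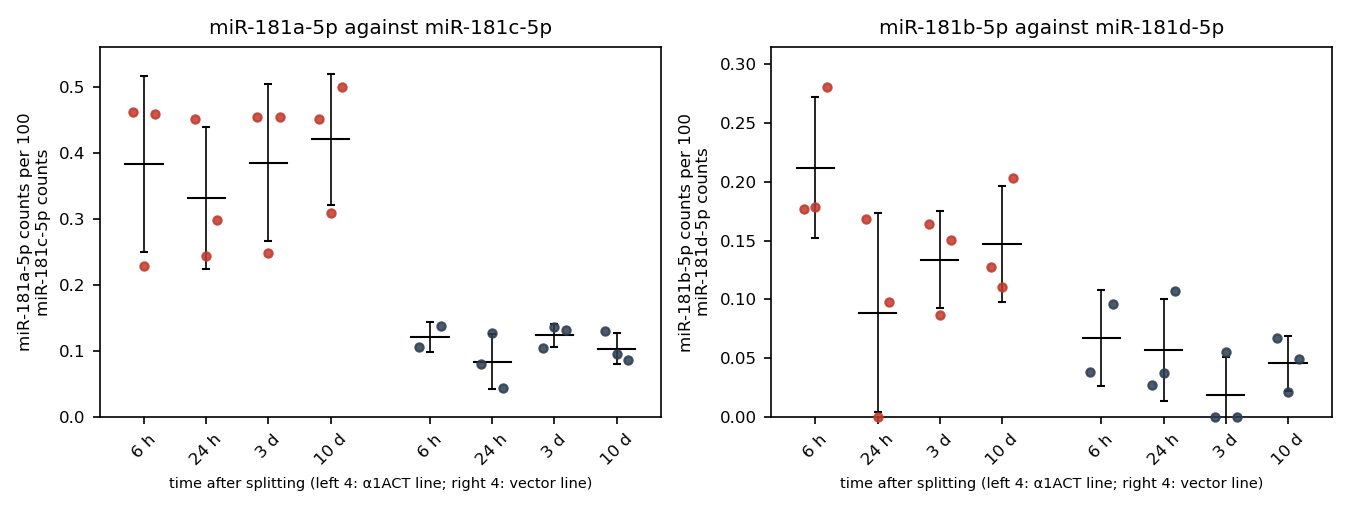
Counts of miR-181a-5p per 100 counts of miR-181c-5p (left panel) and of miR-181b-5p per 100 counts of miR-181d-5p (right panel) in each library by time after splitting, α1ACT line in red and vector line in dark blue, with bars for the group mean and SD. On the left the 12 α1ACT libraries, at 0.228 or more, lie above the 11 vector libraries, at 0.137 or less.

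The other count table of the series, made with Chimira, listed the same members and, beyond the sRNAbench table, miR-181a-1-3p, miR-181a-2-3p and miR-181b-1-3p. There the log2 fold change of the α1ACT line over the vector line was 1.83 for miR-181a-5p (SE 0.191) and 1.68 for miR-181b-5p (SE 0.260). The gap in the ratio of miR-181a-5p to miR-181c-5p was narrower there. Per 100 counts of miR-181c-5p, α1ACT libraries ran from 0.253 to 0.507 and vector libraries from 0.0430 to 0.238. The highest vector ratio was that of 3 d replicate 1, with 7 counts of miR-181a-5p there and 3 by sRNAbench. Few counts fell on the partner strands of the scarce members: miR-181a-2-3p had 8 counts over the 12 α1ACT libraries and 3 over the 11 vector libraries, miR-181a-1-3p had 3 in each line, and miR-181b-1-3p had 3 in the α1ACT line and 2 in the vector line. The partner strand miR-181d-3p had 33 counts in the α1ACT line and 35 in the vector line. In the sRNAbench table miR-181d-3p had 6 counts in the α1ACT line and 12 in the vector line and did not pass the filter on low counts. These 4 strands have too few counts for a comparison of the lines, and none of them was tested.

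Whether the members change with the time after splitting was asked with an F test over the 4 times in each line. Change with time did not choose the members, but earlier results of these data were known when members and tests were chosen. Of the 5 members, miR-181c-5p and miR-181d-5p passed in the α1ACT line, where 42.0% of all 269 miRNAs did, and the same 2 passed in the vector line, where 36.8% did. A share of 2 of 5 is near that of all miRNAs. The edgeR quasi-likelihood Benjamini-Hochberg adjusted p was 0.0111 for miR-181c-5p and 0.0236 for miR-181d-5p in the α1ACT line, and 7.06e-05 and 0.0287 in the vector line. For miR-181a-5p it was 0.375 in the α1ACT line and 0.430 in the vector line, for miR-181b-5p 0.682 and 0.751, and for miR-181c-3p 0.369 and 0.263.

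The abundant miR-181c-5p was highest at 10 d in both lines. In the α1ACT line it had 7941, 7023 and 8127 CPM at 6 h, 8508, 7502 and 8854 CPM at 24 h, 8431, 6982 and 7922 CPM at 3 d and 10778, 9584 and 9441 CPM at 10 d. The vector line had 7349 and 6556 CPM at 6 h, 7642, 7140.1 and 7573 CPM at 24 h, 6451, 6470.1 and 7349 CPM at 3 d and 11394, 10161 and 9553 CPM at 10 d. All 6 libraries of 10 d were above all 17 others, as for 1.49% of the 269 miRNAs (for 0 of them with the vector pair exchanged), and the 3 earlier times overlapped each other in both lines. The log2 fold change of 10 d over 6 h was 0.37 in the α1ACT line (SE 0.102) and 0.58 in the vector line (SE 0.115), and the adjusted p (edgeR quasi-likelihood, Benjamini-Hochberg) was 0.00896 in the α1ACT line and 0.000918 in the vector line.

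Its neighbour in the genome, miR-181d-5p, was likewise higher at 10 d than at 6 h. It had 2377, 2118 and 2338 CPM at 6 h in the α1ACT line, 2732, 2459 and 2749.6 CPM at 24 h, 2708, 2503 and 2685 CPM at 3 d and 3009, 2937 and 2839 CPM at 10 d. The vector line had 2263 and 2349 CPM at 6 h, 2496, 2239 and 2459.9 CPM at 24 h, 2369, 2427 and 2705 CPM at 3 d and 2615, 3271 and 2902 CPM at 10 d. The 10 d libraries were above the 6 h libraries in both lines, as for 13.4% of all miRNAs (2 miRNAs, neither a member, with the vector pair exchanged), and in the vector line they overlapped those of 3 d. The log2 fold change of 10 d over 6 h was 0.36 in the α1ACT line (SE 0.0958) and 0.34 in the vector line (SE 0.108), and the adjusted p (edgeR quasi-likelihood, Benjamini-Hochberg) was 0.00624 in the α1ACT line and 0.0316 in the vector line.

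Of the 5 members, these 2 were called higher at 10 d than at 6 h in the α1ACT line, where 11.2% of all miRNAs were, and the same 2 in the vector line, where 5.20% were. In both lines together 4.09% of all miRNAs were called higher. The 2 members are encoded side by side, so they may not be independent of each other. No member was called lower, beside 16.0% of all miRNAs in the α1ACT line and 6.69% in the vector line. For the other members the log2 fold change of 10 d over 6 h in the α1ACT line was 0.48 for miR-181a-5p (SE 0.336), -0.20 for miR-181b-5p (SE 0.629) and 0.17 for miR-181c-3p (SE 0.113). For the same members in the same order the vector line gave 0.38 (SE 0.431), -0.21 (SE 0.976) and 0.19 (SE 0.126). In the α1ACT line the errors of the 2 scarce members are about as large as the change of miR-181c-5p or larger. In the vector line the error of miR-181b-5p is larger than that change (0.58), while that of miR-181a-5p is smaller.

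These calls depend on how the 2 vector columns are named. With the pair exchanged the log2 fold change of miR-181c-5p in the vector line was 0.07 and its call was lost in all 4 tests. Of all 269 miRNAs, 0 were then called at 10 d against 6 h in the vector line, where 32 were called as named. In the α1ACT line, whose libraries were not touched, its fold change was again 0.37 (edgeR, Benjamini-Hochberg adjusted p = 0.0777); all groups share 1 estimate of the spread. The call in the vector line was also lost without vector 6 h replicate 2, at 0.43, and without both columns, at 0.38. That in the α1ACT line was lost without α1ACT 10 d replicate 1, at 0.30, as was its F test there. The F test was also lost without the 4 α1ACT libraries numbered 2. In the Chimira table as named the fold change was 0.39 in the α1ACT line and -0.01 in the vector line, and it was called in neither line, while with the pair exchanged there the call of miR-181c-5p returned in all 4 tests. For miR-181d-5p the calls of both F tests and of 10 d against 6 h in the vector line were lost in 14, 19 and 19 of 34 alternatives, and that of 10 d against 6 h in the α1ACT line in 1.

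**Figure D4:**
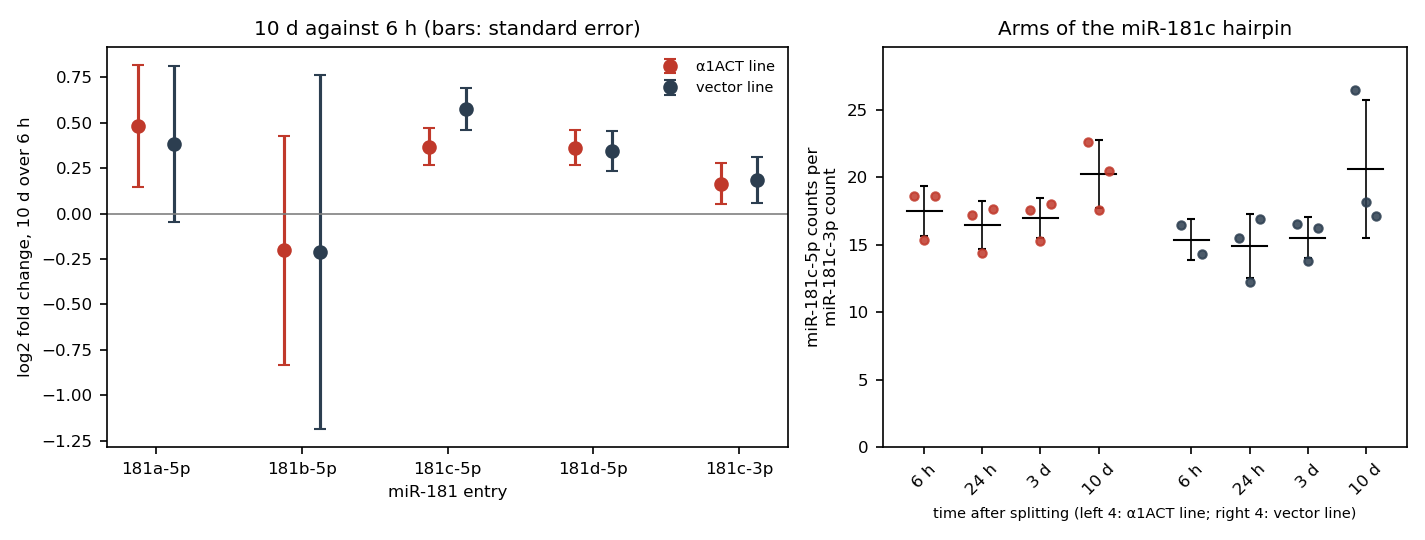
Left, fitted log2 fold change of 10 d over 6 h for each member in the α1ACT line (red) and the vector line (dark blue), with bars for the standard error. Right, counts of miR-181c-5p per count of miR-181c-3p in each library by time, with bars for the group mean and SD; the means are highest at 10 d in both lines. In the α1ACT line the 10 d libraries overlap the earlier ones, while in the vector line they stand at 17.1 or more and all earlier ones at 16.9 or less. With the vector pair exchanged the times overlap in the vector line too, with a 10 d library at 14.3 and a 6 h library at 18.2.

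The 2 arms of the miR-181c hairpin printed above could be compared within each library. There were 20.2 ± 2.54 counts of the 5p arm per count of the 3p arm at 10 d and 17.5 ± 1.89 at 6 h in the α1ACT line (SD, n = 3 each). In the vector line the ratio was 20.6 ± 5.12 at 10 d (SD, n = 3) and 15.4 ± 1.52 at 6 h (SD, n = 2). A single vector library of 10 d, replicate 1, reached 26.5. The change did not pass an exact two-sided permutation test within lines (mean log2 change 0.30, p = 0.06, 200 arrangements, smallest possible p = 0.005), a test chosen after these values were seen. That test does not use the replicate numbers. Between libraries of the same number the ratio was higher at 10 d than at 6 h in 5 of 5 cases as named, by 0.14 to 0.69 on the log2 scale, and in 4 of 5 with the vector pair exchanged, a comparison in which no p below 0.0625 is possible by exact sign flips.

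The difference between the lines did not detectably change with time for any member. The interaction of line and time called 0 of the 5 members and 0% of the 269 miRNAs by edgeR's quasi-likelihood F test (10 had p under 0.05 before adjustment, and DESeq2 called 2). The smallest edgeR Benjamini-Hochberg adjusted p of a member was 0.9997. Over 34 alternatives no member was called.

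Across the 23 libraries the 5 other miRNAs most like miR-181a-5p, by Pearson r of log2 CPM, were miR-9a-5p (0.741), miR-708-5p (0.699), miR-542-5p (0.684), miR-708-3p (0.680) and miR-34c-5p (0.608). All 5 had a positive log2 fold change of the α1ACT line over the vector line, from 0.30 for miR-542-5p to 1.20 for miR-708-3p, and the difference between the lines enters each r. Most like miR-181c-5p were miR-1843a-5p (0.874), miR-338-3p (0.869), miR-421-3p (0.868), miR-137-3p (0.768) and miR-598-3p (0.763). None of these 10 shares the seed of the 5p members. Between miR-181c-5p and miR-181d-5p r was 0.841 in the α1ACT line (n = 12) and 0.708 in the vector line (n = 11). Between miR-181a-5p and miR-181b-5p it was 0.633 in the α1ACT line and -0.140 in the vector line, where miR-181b-5p rested on 7 counts or fewer per library. All these values share libraries, depth and scaling and are descriptions.

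As a background from neural tissue, 23 tested entries of a list of brain-enriched miRNAs were followed over time in the same tests. In the F test 7 of 23 passed in the α1ACT line and 9 in the vector line, beside 42.0% and 36.8% of all miRNAs. At 10 d against 6 h 3 rose and 1 fell in the α1ACT line, beside 11.2% higher and 16.0% lower among all miRNAs. The vector line had 1 that rose and 2 that fell, beside 5.20% and 6.69%. With the vector pair exchanged the F test passed 6 in the α1ACT line and 5 in the vector line, beside 34.9% and 17.1% of all miRNAs. At 10 d against 6 h 3 were then called in the α1ACT line and 0 in the vector line, beside 19% and 0%. In the Chimira table as named the vector line also had 0, beside 0% of all miRNAs. With the pair exchanged in that table it had 5 of 25, beside 14.1%. With the names as kept, the activity-regulated miR-212-5p of this list fell from 6 h to 10 d in both lines. Its log2 fold change was -1.12 in the α1ACT line (SE 0.208, edgeR Benjamini-Hochberg adjusted p = 0.000176). In the vector line it was -1.03 (SE 0.229, edgeR Benjamini-Hochberg adjusted p = 0.00216). A regulator of synaptic proteins, miR-153-3p, rose, by 0.45 (SE 0.127) in the α1ACT line and 0.54 (SE 0.143) in the vector line. The spine-size regulator miR-138-5p rose in the α1ACT line (0.35, SE 0.112), and miR-344b-1-3p passed the F test in both lines. With the pair exchanged the vector line's log2 fold changes of miR-212-5p and miR-153-3p were -0.0034 and 0.0070, with no call, and miR-153-3p also lost its call in the α1ACT line (edgeR Benjamini-Hochberg adjusted p = 0.0550). The median log2 fold change over the 23 was 0.08 in the α1ACT line and 0.03 in the vector line, beside -0.01 and 0.02 over all 269 miRNAs.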

How the data were processed

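Small RNA of 23 libraries was analysed. The authors deposited 2 tables of raw read counts, 1 from sRNAbench (413 entries) and 1 from Chimira (627 entries, per the table names), with whole numbers for each mature miRNA and no normalization; edgeR is named in the submitters' processing notes. Aligner, miRBase release and build: not given in the sources used here. The α1ACT line was taken to be the columns called WT, because its repeat has normal length, and the vector line those called control, which is an assumption. Each table has 12 further columns, not used. An entry with no name held 0 counts (0%).

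Counts were fitted with edgeR 4.0.16 in R 4.3.3 (filterByExpr, TMM, 1 mean per group over all 23 libraries, robust quasi-likelihood, Benjamini-Hochberg over 269 miRNAs, threshold 0.05). Standard errors come from the fold change and its F value, and log2 CPM used a prior count of 2. The members, the lists and the tests were chosen with earlier results of these data known. The steps were tested on simulated data. Named miRNAs were the members, the 5 most like miR-181a-5p and miR-181c-5p, up to 4 called brain-enriched miRNAs, and the strands of the family that the Chimira table adds. Sequences come from RefSeq (GRCr8). The labels mention no molecular identifiers, so floors cover counting error only. Alternatives were the Chimira table, DESeq2 size factors, library totals, no filter, DESeq2 1.42.0, a replicate block, the pair of vector columns exchanged or omitted, and each library left out; the Chimira table with the pair exchanged, the α1ACT libraries numbered 2 omitted, a replicate block within each line, and the arm ratio test were added after seeing the data.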

Additional observations from a re-analysis of the deposited data

How the results depend on the processing

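Over 33 alternatives the log2 fold change of the α1ACT line over the vector line (mean of 4 times) stayed positive for both scarce members. For miR-181a-5p it ran from 1.83 to 2.16, the last without the α1ACT libraries numbered 2, which were picked as its lowest. For miR-181b-5p it ran from 1.47 to 2.62, the last without vector 3 d replicate 2. The 2 members called by each test of time depended on the setting, and the cause was not tested. The F test in the α1ACT line called 0 in the Chimira table, with the vector pair exchanged and without the α1ACT libraries numbered 2 (chosen after seeing the data), and 1 with library totals and without the pair. The F test in the vector line called 0 in the Chimira table and with the pair exchanged, and 1 with library totals, with no filter, without the pair and without the α1ACT libraries numbered 2. At 10 d against 6 h the α1ACT line had 1 in the Chimira table, with the pair exchanged and without the α1ACT libraries numbered 2. There the vector line had 0 in the Chimira table, with the pair exchanged and without the pair, and 1 with library totals, with no filter, in the Chimira table with the pair exchanged and without the α1ACT libraries numbered 2. Leaving out 1 library gave 0 to 2 (F test, α1ACT), 1 to 2 (F test, vector), 1 to 2 (10 d against 6 h, α1ACT) and 0 to 2 (vector), with the lone library of a group assumed to vary like the others.

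Some signs turned. The mean line difference of miR-181c-3p ran from -0.05 to 0.06, and the line difference of miR-181c-5p was -0.23 at 6 h and 0.18 at 10 d in the Chimira table. For miR-181b-5p, 10 d over 6 h in the α1ACT line was 0.011 in the Chimira table and 0.014 there with the pair exchanged. In the vector line it was 1.32 in the Chimira table, 1.15 with the pair exchanged and 0.73 without it, and -0.79 to 0.52 leaving out 1 library. In the vector line miR-181c-5p was at -0.0087 in the Chimira table, miR-181c-3p at -0.14 there and -0.061 with the pair exchanged, and miR-181d-5p at -0.15 in the Chimira table and -0.078 with the pair exchanged. Library totals lowered the median of all miRNAs there by 0.11, and miR-181c-5p was then at 0.47 and still called. All miRNAs called in the vector line at 10 d against 6 h numbered 32, against 0 in the Chimira table and with the pair exchanged, 11 without it and 16 without 6 h replicate 2. By the F test there they numbered 99, against 56 and 46. The interaction called 0, and up to 4 without α1ACT 6 h replicate 2.

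A replicate block, across the lines or within each line (the second added after seeing the data), changed no call of a member (2, 2, 2, 2 and 0 called). Same-numbered libraries deviated together in some pairs and in opposite directions in others. Between the lines r was over 0.1 in 4 of 11 pairs, from -0.54 to 0.52 (1 of 9 α1ACT libraries correlated best with its own number). Within the α1ACT line it was over 0.1 in 6 of 18 pairs of times, from -0.64 to 0.57. Within the vector line it was over 0.1 in 7 of 15, from -0.68 to 0.73. Deviations were taken from means of 2 or 3 libraries, so these counts cannot show that pairing is absent. By the exact permutation test the arm ratio had p = 0.045 in the Chimira table with the pair exchanged, 0.395 in that table as named, 0.445 with the pair exchanged, 0.283 without the pair and 0.03 to 0.2375 leaving out 1 library. Depth limits miR-181b-5p and the 3p strands of the scarce members.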
